A study of Homo sapiens with 8 samples.

Results

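HES1 and HES2, a pair of HES family transcriptional repressors, were followed on Affymetrix Human Genome U95Av2 arrays, which read each transcript with a set of short oligonucleotide probes. Probe sets were taken when the platform annotation gave them exactly 1 gene symbol and that symbol was HES1 or HES2. The rule found 3 of the 12558 tested probe sets, for 2 of the 8226 genes named in this way, 37393_at for HES1 (Entrez gene 3280) and 36352_at and 36353_at for HES2 (Entrez gene 54626). The study asked how the transcriptome of prostate cancer cells responds to acute Notch activation. The 8 arrays fell into 4 groups of 2, namely LNCaP cells overexpressing activated Notch1, LNCaP cells with the green fluorescent protein (GFP) control, PC3 cells overexpressing activated Notch1 and PC3 cells with the GFP control. LNCaP is an androgen-sensitive human prostate carcinoma line from a lymph node metastasis, and PC3 is an androgen-independent line from a bone metastasis. Each line stood for 1 tumor, and neither the vector used for the array samples nor the time after delivery is given in the sources used here. The methods state that a pair of chips was made per sample, so the 2 arrays of a group may share an RNA, and every p-value below measures only the spread between arrays, which may be technical.

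Notch receptors are cut after ligand binding, and the freed intracellular domain enters the nucleus, where it joins the DNA-binding protein CSL (RBPJ) and a Mastermind coactivator and switches on target genes. HES1 is the best known of these targets. HES proteins carry a basic helix-loop-helix domain and an Orange domain, bind DNA at N box and E box sequences, recruit TLE corepressors through a C-terminal WRPW motif, and HES1 represses its own gene as well as genes of differentiation. HES2 is a less studied relative of the same family.

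The sequences directly upstream of both genes are shown because the CSL complex acts on HES1 there. They are the 250 bases before the annotated start of each gene, from RefSeq on assembly GRCh38.p14, written 5′ to 3′ on the strand of the gene. Capitals mark, on either strand, the letters GTGNGAA and TGGGAA (CSL binding sequences) and CACNAG (the N box, on which HES proteins bind). HES1 lies on the plus strand of chromosome 3 and its window is chr3:194135898-194136147. HES2 lies on the minus strand of chromosome 1 and its window is chr1:6419920-6420169.
HES1: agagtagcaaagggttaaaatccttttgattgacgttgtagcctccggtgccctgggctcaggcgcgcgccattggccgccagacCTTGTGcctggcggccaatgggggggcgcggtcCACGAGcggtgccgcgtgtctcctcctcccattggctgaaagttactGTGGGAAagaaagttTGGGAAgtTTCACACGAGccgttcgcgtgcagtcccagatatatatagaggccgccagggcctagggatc
HES2: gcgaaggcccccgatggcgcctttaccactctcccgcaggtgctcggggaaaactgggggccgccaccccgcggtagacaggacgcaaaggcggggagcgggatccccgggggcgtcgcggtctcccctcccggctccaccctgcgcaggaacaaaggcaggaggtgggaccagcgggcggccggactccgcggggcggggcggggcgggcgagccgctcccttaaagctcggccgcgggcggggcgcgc

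The HES1 window held GTGNGAA 2 times, on the plus strand from base 85 before the start and, as TTCACAC, on the minus strand from base 62 before the start. It held TGGGAA 2 times, once inside the first of those matches and once from base 70. CACNAG was found 3 times, from bases 165, 132 and 58, and the last of these overlapped the second GTGNGAA match. The HES2 window held 0 matches to each of these letters. Among 35116 human promoter windows of the same length, 11.6% held at least 1 GTGNGAA and 0.906% held 2 or more, 20.8% held at least 1 TGGGAA and 2.9% held 2 or more, and 32% held at least 1 CACNAG. Both windows also differed in composition, with 59.2% G and C upstream of HES1 and 76.4% upstream of HES2. HES1 had the letters TATATA 2 times, overlapping, from bases 31 and 29, a sequence held by 3.73% of the windows, and CCAAT 3 times on either strand, a sequence held at least once by 32% of the windows, and HES2 held 0 matches to both. These are matches of letters, and no binding was measured here.

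HES1 was strongly up-regulated by activated Notch1 in both cell lines. In LNCaP cells, the HES1 probe set read 11.22 and 11.23 on the log2 scale with activated Notch1, against 8.41 and 8.47 with GFP. In PC3 cells, it read 10.51 and 10.61 with activated Notch1, against 7.92 and 8.08 with GFP. All 4 Notch1 arrays lay above all 4 GFP arrays, and the gap between the groups was many times the gap between replicate arrays, so that the 2 readings of LNCaP Notch1 cells differed by 0.01 and those of PC3 GFP cells, the widest pair, by 0.16. With 2 arrays a group, 32.9% of all probe sets were higher without overlap within LNCaP and 20.6% within PC3. The share over both lines together was not counted.

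**Figure D1:**
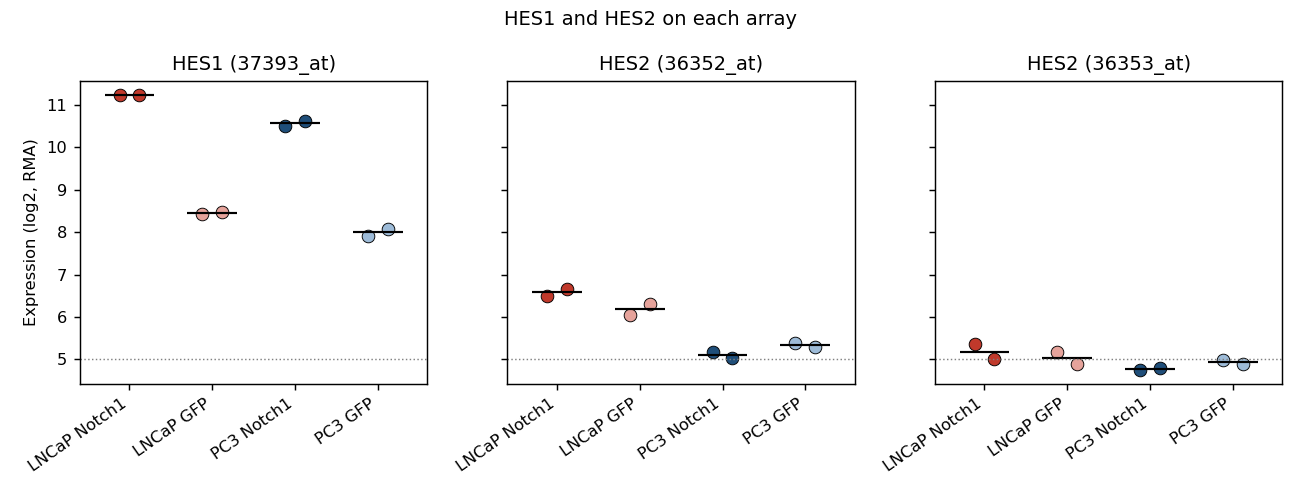
Log2 expression (y axis, RMA values) of HES1 and of both HES2 probe sets for every array, by group (x axis). Points are arrays, black lines are group means (n = 2) and the dotted line marks log2 5. HES1 read 10.51 or more on every Notch1 array and 8.47 or less on every GFP array, while both HES2 probe sets stayed between 4.76 and 6.67.

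The change in HES1 was 2.78 on the log2 scale in LNCaP cells (SE 0.12, 95% confidence interval 2.53 to 3.04), a 6.88-fold rise with an adjusted p of 3.12e-07 by limma with Benjamini-Hochberg adjustment over all tested probe sets. In PC3 cells it was 2.56 (SE 0.12, interval 2.30 to 2.81), a 5.89-fold rise with an adjusted p of 4.22e-07. A probe set is called here at an adjusted p under 0.05, and 1 of the 3 HES probe sets, that of HES1, was called in each line. Of all tested probe sets, 17.3% were called in LNCaP cells, made up of 8.01% higher and 9.32% lower with Notch1, and 6.2% were called in PC3 cells, 4.19% higher and 2.01% lower. Ordered by the size of the rise, HES1 was number 26 of 12558 in LNCaP cells and number 23 in PC3 cells, and by p-value it was number 8 and number 14 in these lines. The arrays read RNA of the whole culture, so more HES1 RNA per cell and a larger share of cells with HES1 RNA cannot be told apart.

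**Figure D2:**
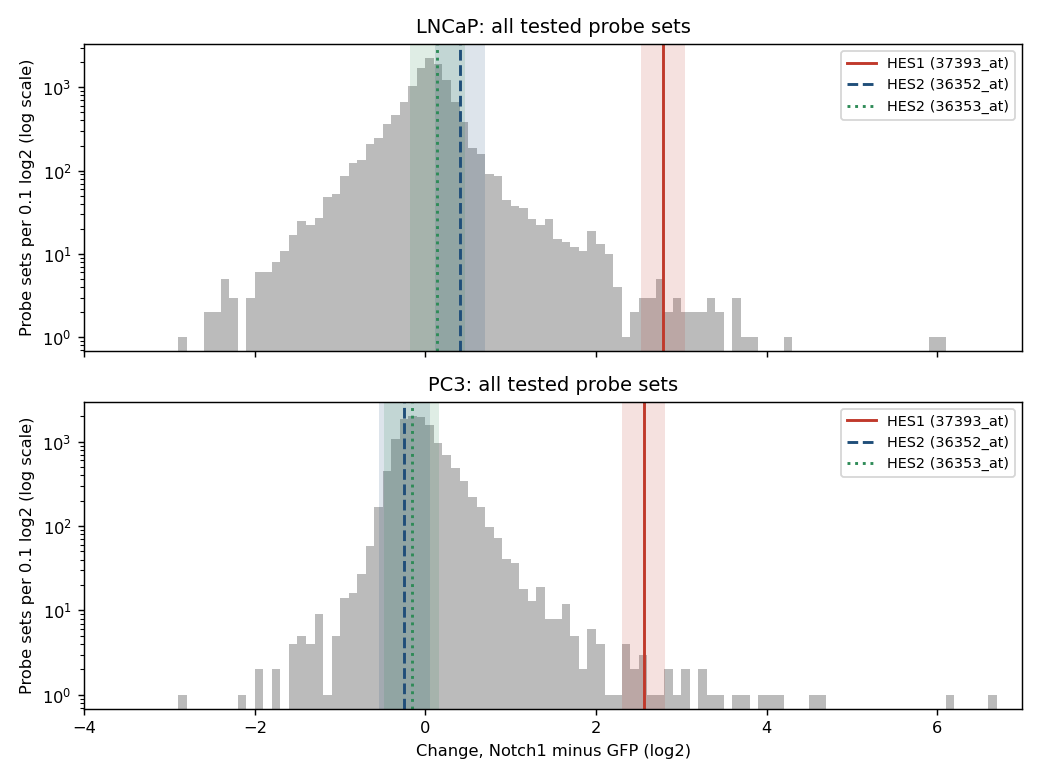
Number of probe sets (y axis, log scale) by change with activated Notch1, Notch1 minus GFP on the log2 scale (x axis, bins of 0.1), over the 12558 tested probe sets in LNCaP (top) and PC3 (bottom). Lines mark HES1 and both HES2 probe sets and bands their 95% confidence intervals. HES1 stood far to the right in both lines, at 2.78 and 2.56, and both HES2 probe sets stood within the main body of the distribution.

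The rise of HES1 did not pass the test of a difference between the lines, which does not show that it was equal. The LNCaP effect minus the PC3 effect was 0.23 on the log2 scale (SE 0.16, interval -0.14 to 0.59, adjusted p = 0.36), so differences of either sign lay within the interval. In this comparison 14.2% of all probe sets were called, 6.49% with the higher and 7.67% with the lower effect in LNCaP. The median difference over all probe sets was 0.12. After quantile normalization of the deposited values the HES1 difference was 0.61 (adjusted p = 0.0338), so the call depends on how the arrays are scaled.

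The level of HES1 differed less between the lines than with Notch1. With GFP, HES1 averaged 8.44 ± 0.04 in LNCaP cells and 8.00 ± 0.12 in PC3 cells (log2, SD, n = 2 each), a difference of 0.44 (SE 0.12, adjusted p = 0.0069) or 1.36-fold. With activated Notch1 it averaged 11.23 ± 0.01 in LNCaP cells and 10.56 ± 0.07 in PC3 cells (SD, n = 2 each), a difference of 0.67 (adjusted p = 0.000449) or 1.59-fold. The order of the 4 groups was therefore LNCaP Notch1, PC3 Notch1, LNCaP GFP and PC3 GFP, with no overlap between neighbours, although 78.4% of all probe sets did not overlap between the lines with GFP and 87.6% with Notch1. The share of all probe sets with such a full order was not counted. However, 58.8% of all probe sets were called between the lines with GFP (40.3% higher in LNCaP, 18.5% lower) and 70.8% with Notch1 (52.2% higher in LNCaP, 18.5% lower), and LNCaP arrays had higher medians (6.28 to 6.36) than PC3 arrays (5.95 to 6.01), with a median difference over all probe sets of 0.22 with GFP and 0.37 with Notch1. When each array was centred on its median, the GFP difference in HES1 was 0.16 (adjusted p = 0.252) and the Notch1 difference 0.29 (adjusted p = 0.0534), and the median over all probe sets with GFP was then -0.06. A joint normalization of LNCaP and PC3 arrays is not stated in any source read here.

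None of the changes of HES2 with activated Notch1 within a line passed the test. Probe set 36352_at read 6.50 and 6.67 in LNCaP Notch1 cells, against 6.05 and 6.31 in LNCaP GFP cells. In PC3 cells it read 5.17 and 5.02 with activated Notch1, against 5.39 and 5.30 with GFP. The groups did not overlap in either line, with Notch1 arrays above GFP arrays in LNCaP and below them in PC3, but with 2 arrays a group this held for 32.9% and 35.4% of all probe sets in those lines and directions. The change was 0.40 in LNCaP cells (SE 0.13, interval 0.11 to 0.70, adjusted p = 0.0639 by limma), or 1.32-fold, and with the replicate number as a block its adjusted p was 0.0458. In PC3 cells the change was -0.25 (SE 0.13, interval -0.54 to 0.05, adjusted p = 0.269). The medians over all probe sets were 0.04 in LNCaP cells and -0.08 in PC3 cells, on the same sides of 0.

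The difference of the Notch1 effect on 36352_at between the lines was 0.65 on the log2 scale (SE 0.19, interval 0.23 to 1.06, adjusted p = 0.045), which passed the threshold narrowly in a comparison where 6.49% of all probe sets were called in this direction. With values under log2 5 raised to 5 the difference was not called (adjusted p = 0.105 by limma). No reading of 36352_at lay under log2 5, so the difference stayed at 0.65 (SE 0.17). Its adjusted p moved only through the variance estimate and the adjustment, which draw on all probe sets. The call was lost with arrays centred on their medians (0.55, adjusted p = 0.0838) and after quantile normalization (0.54, adjusted p = 0.0907). It was also lost when any 1 of 6 of the 8 arrays was left out, that is, any array other than replicate 2 of LNCaP GFP or of PC3 GFP, with values of 0.51 without LNCaP GFP replicate 1, 0.73 without LNCaP Notch1 replicate 1, 0.56 without LNCaP Notch1 replicate 2, 0.60 without PC3 GFP replicate 1, 0.72 without PC3 Notch1 replicate 1 and 0.57 without PC3 Notch1 replicate 2. The sign was positive in each of these.

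Probe set 36353_at of HES2 read close to log2 5 in every group. It read 5.36 and 5.02 in LNCaP Notch1 cells, against 5.19 and 4.90 in LNCaP GFP cells, and these groups overlapped. In PC3 cells it read 4.76 and 4.80 with activated Notch1, against 5.00 and 4.88 with GFP. These did not overlap, as for 35.4% of all probe sets in that direction. The changes were 0.14 in LNCaP (SE 0.15, interval -0.19 to 0.47, adjusted p = 0.604) and -0.16 in PC3 (SE 0.15, interval -0.49 to 0.16, adjusted p = 0.502). The effect in LNCaP exceeded that in PC3 by 0.30 (interval -0.16 to 0.76, adjusted p = 0.333). The intervals leave room for a change of up to 1.38-fold upward in LNCaP cells.

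Probe set 36352_at of HES2 differed between the lines. With GFP, 36352_at averaged 6.18 ± 0.19 in LNCaP cells and 5.34 ± 0.06 in PC3 cells (SD, n = 2 each), a difference of 0.84 (SE 0.13, adjusted p = 0.000257) or 1.79-fold. With activated Notch1 it averaged 6.58 ± 0.12 in LNCaP cells and 5.10 ± 0.10 in PC3 cells (SD, n = 2 each), a difference of 1.49 (adjusted p = 3.27e-06) or 2.80-fold. Both differences passed the threshold under each of the 14 alternatives run, with ranges of 0.55 to 0.97 and 1.09 to 1.57. Of all probe sets, however, 58.8% were called between the lines with GFP (40.3% higher in LNCaP) and 70.8% with Notch1 (52.2% higher). The median differences were 0.22 and 0.37. A difference at least as far upward was held by 20.5% of all probe sets with GFP and by 8.4% with Notch1. The order of its groups was LNCaP Notch1, LNCaP GFP, PC3 GFP and PC3 Notch1, and the neighbours within a line did not pass the test of their difference.

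The second HES2 probe set did not give a stable order. With GFP, 36353_at averaged 5.05 ± 0.20 in LNCaP cells and 4.94 ± 0.08 in PC3 cells (SD, n = 2 each), a difference of 0.10 (adjusted p = 0.564) that turned to -0.17 with median centring, -0.22 with quantile normalization and -0.04 without LNCaP GFP replicate 1. With activated Notch1 it averaged 5.19 ± 0.24 in LNCaP cells and 4.78 ± 0.03 in PC3 cells (SD, n = 2 each), a difference of 0.41 (adjusted p = 0.0285). That call was lost with median centring (0.03) and with the log2 5 floor (0.19), the sign turned with quantile normalization (-0.07), and the call was also lost without LNCaP Notch1 replicate 1 (0.24), PC3 Notch1 replicate 1 (0.39) or PC3 Notch1 replicate 2 (0.43). The 2 probe sets of HES2 correlated at r = 0.685 over the 8 arrays, given as a description, since the arrays share groups and lines.

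**Figure D3:**
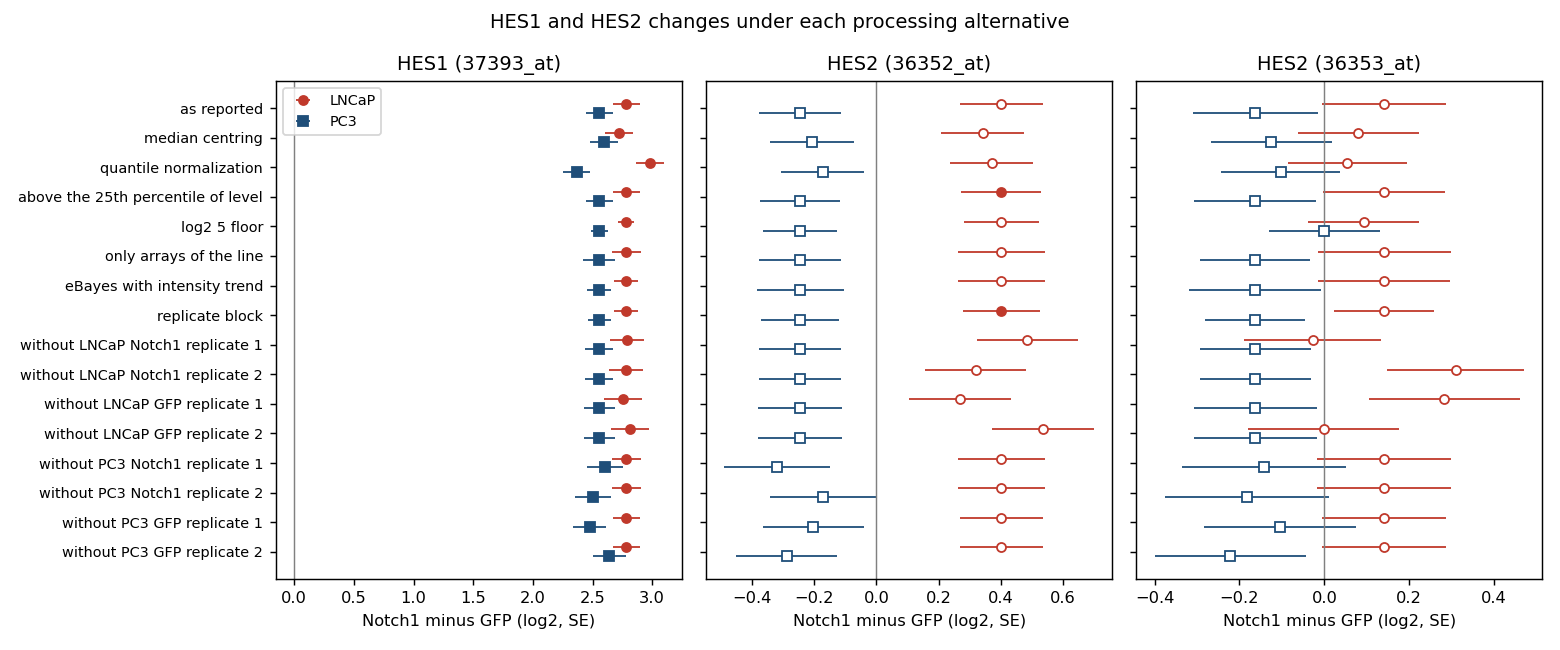
Change with activated Notch1 (x axis, Notch1 minus GFP, log2) of HES1 and both HES2 probe sets under each processing alternative (y axis), in LNCaP (circles) and PC3 (squares). Bars are standard errors, and filled symbols have an adjusted p under 0.05. HES1 stayed between 2.72 and 2.98 in LNCaP and between 2.37 and 2.64 in PC3, and 36352_at stayed on its own side of 0 in each line.

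Other genes of the HES family and the Notch pathway were read from lists of known members, each gene by the probe set whose mean was highest. Of 10 further HES, HEY and other bHLH-Orange repressors listed, 1 was measured by a probe set with its symbol alone, BHLHE40 (DEC1), a repressor of the circadian and hypoxia responses. It averaged 9.35 in LNCaP Notch1 cells, against 7.92 in LNCaP GFP cells, and 9.81 in PC3 Notch1 cells, against 9.10 in PC3 GFP cells. BHLHE40 rose by 1.43 in LNCaP (SE 0.17, adjusted p = 0.00024) and by 0.72 in PC3 (SE 0.17, adjusted p = 0.0363), where the call was lost with quantile normalization (0.59), with the log2 5 floor, with the PC3 arrays alone, and without PC3 GFP replicate 1 (0.46), PC3 Notch1 replicate 1 (0.77) or 2 (0.67), or LNCaP Notch1 replicate 1 or 2 (0.72 each). The floor left its PC3 change at 0.72. NOTCH1 and HEY1 were not analysed here.

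Of 33 listed Notch receptors, ligands, processing enzymes and CSL cofactors, 20 were measured, and the median change was 0.28 in LNCaP and -0.01 in PC3, against 0.04 and -0.08 over all probe sets. In LNCaP cells 7 rose and 2 fell, and in PC3 cells 2 rose and 0 fell (11 and 7 had an unadjusted p under 0.05 in these lines), where over all probe sets 8.01% were higher and 9.32% lower in LNCaP and 4.19% and 2.01% in PC3. Among the ligands, JAG2 was lower in LNCaP cells by the largest margin of the list, with 8.72 and 8.69 with activated Notch1, against 10.42 and 10.38 with GFP (change -1.70, adjusted p = 7.03e-06). Its change in PC3 was -0.26 (adjusted p = 0.204), and the difference between the lines passed the test (-1.44, adjusted p = 0.000427). JAG1 differed by probe set, with 0.45 in LNCaP (adjusted p = 0.029) and 0.12 in PC3 (adjusted p = 0.581) for the set with the highest mean and 1.53 and 1.24 (adjusted p = 2.26e-05 and 0.000274) for the other. For the first of these the LNCaP call was lost with the log2 5 floor, without any single LNCaP array (0.43 to 0.48) and without either PC3 Notch1 array (0.45 each). The floor left its LNCaP change at 0.45.

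Among receptors, NOTCH3 rose by 0.72 in LNCaP cells (adjusted p = 0.00584), where it averaged 8.44 with activated Notch1, against 7.72 with GFP. In PC3 it read under log2 5 on every array, its change was -0.15 (adjusted p = 0.543), and the LNCaP effect was larger by 0.87 (adjusted p = 0.0187). Leaving out LNCaP GFP replicate 2 (0.59) or LNCaP Notch1 replicate 1 (0.57) ended the LNCaP call, and the difference was not called with the log2 5 floor, without either of these arrays (0.74 and 0.72), or without PC3 Notch1 replicate 1 (0.85) or 2 (0.89). Of the cleavage enzymes, ADAM10, which sheds the Notch ectodomain, rose by 1.25 in LNCaP (adjusted p = 5.22e-05) and by 0.69 in PC3 (adjusted p = 0.00805) by the probe set whose mean was highest, while its other 2 probe sets did not pass the test and the PC3 call was lost without PC3 Notch1 replicate 1 (0.66) or 2 (0.72). ADAM17 differed by probe set. The set with the highest mean changed by 0.42 in LNCaP (adjusted p = 0.0336) and 0.04 in PC3 (adjusted p = 0.875). Another changed by 0.40 (adjusted p = 0.0706) and 1.05 (adjusted p = 0.00106), and the last was called in neither line. PSEN2, a catalytic subunit of gamma-secretase, was lower with Notch1 in LNCaP cells, with a change of -0.84 (adjusted p = 0.00211), and changed by -0.35 in PC3 (adjusted p = 0.161). NCSTN rose by 0.63 in LNCaP (adjusted p = 0.0062) and changed by 0.01 in PC3 (adjusted p = 0.952). RBPJ, the DNA-binding protein of the complex, did not pass the test, with 0.28 in LNCaP and -0.22 in PC3.

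**Figure D4:**
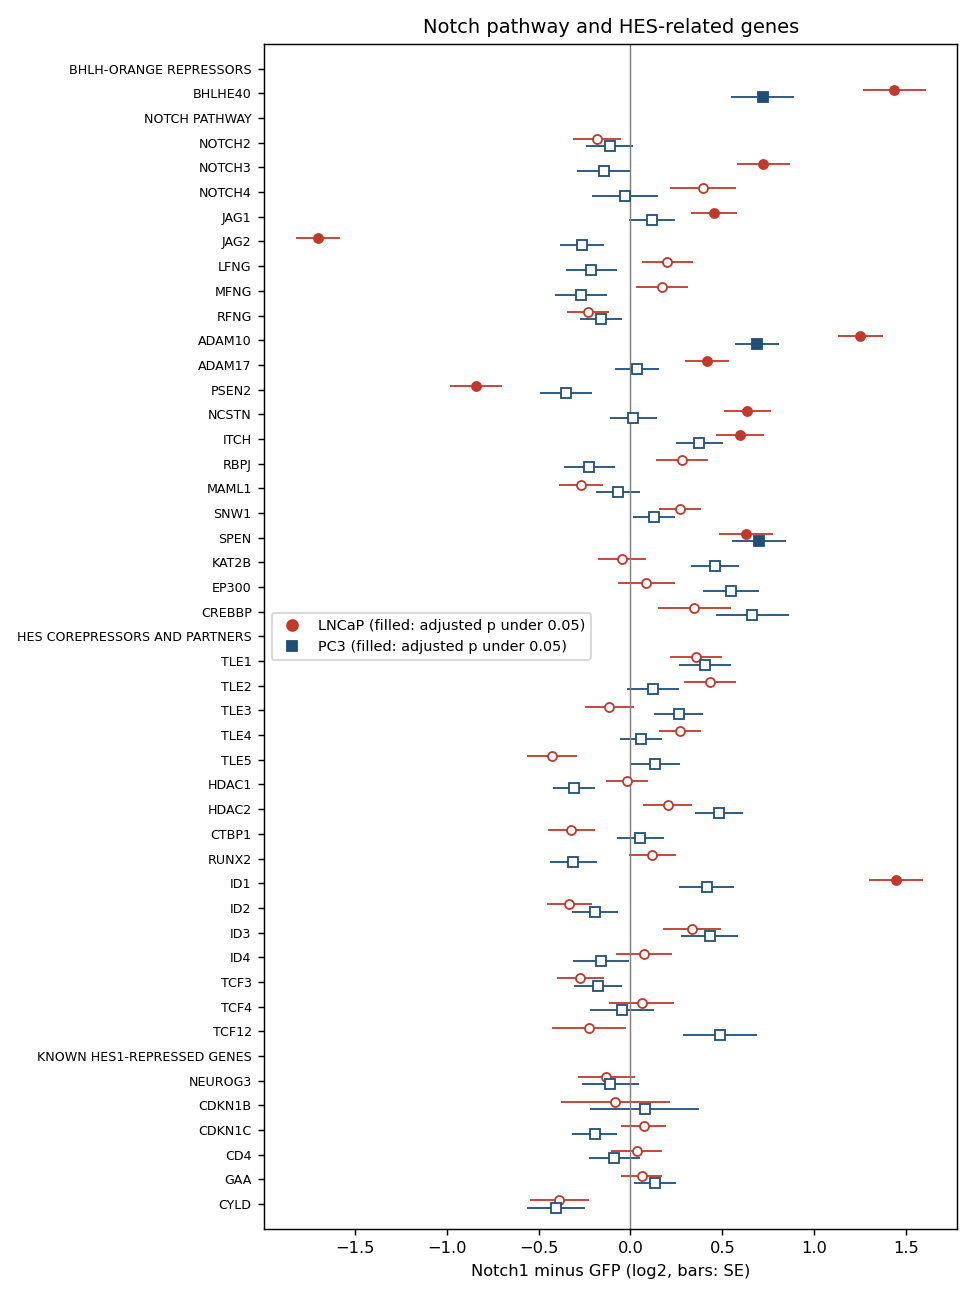
Change with activated Notch1 (x axis, Notch1 minus GFP, log2) of the measured genes of 4 lists around HES1 and HES2 (y axis), in LNCaP (circles) and PC3 (squares). Bars are standard errors, and filled symbols have an adjusted p under 0.05. In LNCaP, JAG2 lay at -1.70 and ID1 and BHLHE40 lay to the right at 1.44 and 1.43, while none of the 6 HES1-repressed genes is filled.

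HES1 acts with corepressors and helix-loop-helix partners, and of 18 listed, 16 were measured. In LNCaP cells 1 rose, ID1, and in PC3 cells 0 passed the test of limma, although 7 had an unadjusted p under 0.05 in each line, and the medians were 0.07 in LNCaP and 0.09 in PC3, against the same 0.04 and -0.08. ID1, a helix-loop-helix protein without a DNA-binding region that pairs with other such proteins, read 11.16 and 11.24 in LNCaP Notch1 cells, against 9.61 and 9.89 in LNCaP GFP cells (change 1.44, adjusted p = 7.74e-05). Its PC3 change was 0.41 (adjusted p = 0.123), which was called with the replicate number as a block (adjusted p = 0.0378) and without PC3 GFP replicate 2 (0.58, adjusted p = 0.037), and was 0.25 without PC3 GFP replicate 1. Its effects in the lines differed by 1.03 (adjusted p = 0.00908), not called with the log2 5 floor (adjusted p = 0.071), which left the difference at 1.03. The other 2 ID1 probe sets rose in LNCaP by 1.70 and 0.89. Another probe set each of TLE5, CTBP1 and TCF3 was called lower in LNCaP by limma. Their changes were -0.71, -0.71 and -0.49 (adjusted p = 0.00651, 0.0252 and 0.0492). The sets of these genes with the highest mean changed by -0.43, -0.32 and -0.27 and were not called. Of the Groucho-type corepressors that bind HES1, TLE1 changed by 0.36 in LNCaP and 0.40 in PC3, neither of which passed the test (adjusted p = 0.12 and 0.118).

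Of 15 listed genes known to be repressed by HES1, 6 were measured and 0 passed limma's test in either line (1 in each had an unadjusted p under 0.05), with medians of -0.02 in LNCaP and -0.10 in PC3, against 0.04 and -0.08 over all probe sets. NEUROG3, a proneural factor of endocrine cells, changed by -0.13 in LNCaP and -0.11 in PC3. The cell cycle inhibitor CDKN1B (p27) changed by -0.08 and 0.08, and CDKN1C (p57) by 0.07 and -0.19, in the same order of lines. CYLD, a deubiquitinase of the NF-kB pathway, gave the largest values, -0.39 in LNCaP (adjusted p = 0.136) and -0.41 in PC3 (adjusted p = 0.154). With GFP, NEUROG3 averaged 5.02 in LNCaP and 5.35 in PC3, CD4 5.47 and 5.04, and CYLD 5.71 and 5.15. These levels lay near log2 5, a chosen mark under which 31.9% to 37.6% of probe sets read on each array. How far such levels limit the reading of a fall was not tested. CDKN1C averaged 6.10 and 5.40, CDKN1B 7.52 and 5.63 (SE of its changes 0.30), and GAA 8.30 and 8.60.

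HES1 can be set beside other reported direct Notch targets. Of 19 listed, 16 were measured. In LNCaP cells 5 rose and 0 fell (6 had an unadjusted p under 0.05), and in PC3 cells 5 rose and 1 fell, where 17.3% of all probe sets were called in LNCaP and 6.2% in PC3. The medians were 0.31 in LNCaP and 0.04 in PC3, against 0.04 and -0.08 over all probe sets. SNAI2 (Slug), a zinc finger factor of mesenchymal transition, read 7.25 and 7.02 in LNCaP Notch1 cells, against 1.45 and 0.98 in LNCaP GFP cells, and 5.95 and 5.88 in PC3 Notch1 cells, against 1.19 and 2.30 in PC3 GFP cells. Its changes of 5.92 and 4.17 rest on GFP readings far under log2 5, and with values under log2 5 raised to 5 they were 2.13 in LNCaP and 0.91 in PC3, both still called. The SNAI2 difference between the lines was 1.75 (adjusted p = 0.0192 by limma) and rests on the same low readings. It ran from 1.19 to 2.30 without single arrays, and some of these fits lost the call. Alongside HES1 and SNAI2, SMAD3, a transducer of TGF-beta signals, rose in both lines, by 0.68 in LNCaP (adjusted p = 0.0176) and by 1.53 in PC3 (adjusted p = 0.000341), although its LNCaP call was lost with the log2 5 floor (adjusted p = 0.122) and without LNCaP GFP replicate 2 (0.55) or LNCaP Notch1 replicate 1 (0.57). The floor altered no reading of this SMAD3 probe set. The SMAD3 difference between the lines was -0.84 (adjusted p = 0.0404 by limma). It ran from -1.03 to -0.65 without single arrays, and most of these fits lost the call. Of its other 3 probe sets, 2 passed the test in LNCaP and in PC3, and the remaining one in neither (0.25 in LNCaP, adjusted p = 0.204, and 0.37 in PC3, adjusted p = 0.103).

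CDKN1A (p21), a cyclin-dependent kinase inhibitor, changed by 0.10 in LNCaP (adjusted p = 0.693) and rose by 1.74 in PC3 (adjusted p = 1.9e-05), with a difference between the lines of -1.64 (adjusted p = 0.000278). CCND1 (cyclin D1) rose by 1.53 in LNCaP (adjusted p = 8.41e-06) and changed by 0.01 in PC3 (adjusted p = 0.961), with a difference of 1.52 (adjusted p = 0.00019). Of its other 2 probe sets, 1 was also called in PC3, at 0.65 (adjusted p = 0.0478). NOTCH3, described among the receptors, is also on this list and is the fifth gene called in LNCaP. TNC, SOX9 and KLF4 were named after their values were seen. TNC, a matrix glycoprotein, changed by 0.41 in LNCaP (adjusted p = 0.308) and rose by 1.32 in PC3 (adjusted p = 0.0105), and the difference between its effects did not pass the test (-0.91, adjusted p = 0.0998), although it did with the replicate block (adjusted p = 0.0371) and without PC3 GFP replicate 2 (-1.25, adjusted p = 0.0157). The PC3 call of TNC was lost with the log2 5 floor and without PC3 GFP replicate 1 (0.98) or PC3 Notch1 replicate 2 (1.14). In PC3, TNC averaged 7.98 with GFP and 9.30 with Notch1, above that floor. SOX9 changed by -0.02 in LNCaP (adjusted p = 0.945) and rose by 1.02 in PC3 (adjusted p = 0.00059), with a difference of -1.04 (adjusted p = 0.00286). KLF4 rose by 0.56 in LNCaP (adjusted p = 0.0144) and fell in PC3, with a change of -0.65 (adjusted p = 0.0179) and a difference of 1.21 (adjusted p = 0.00215). Both KLF4 calls within a line were lost with the log2 5 floor, that in LNCaP also without LNCaP GFP replicate 1 or 2 (0.56 each) or LNCaP Notch1 replicate 1 (0.42), and that in PC3 without PC3 GFP replicate 1 (-0.64), PC3 Notch1 replicate 1 (-0.75) or 2 (-0.55), while the difference stayed called under every alternative run. The floor left both KLF4 changes as they were, at 0.56 and -0.65.

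The genes whose profile over the 8 arrays was most like that of HES1, by Pearson's r among probe sets with 1 symbol, were TSPAN8 (r = 0.994), CCN1 (0.991), BMP6 (0.983), RNF144A (0.983) and ADA (0.982). This is a description with n = 8 arrays that share 4 groups. The 5 genes were picked for likeness to HES1, which rose in both lines, so their own rise follows largely from the choice. Each of the 5 rose in both lines, TSPAN8, a tetraspanin of the cell surface, by 2.00 in LNCaP and 2.02 in PC3, CCN1, a matricellular protein, by 2.91 and 3.39, and ADA, adenosine deaminase, by 2.78 and 1.98. TSPAN8 was the closest, with 10.37 and 10.17 in LNCaP Notch1 cells, against 8.22 and 8.33 in LNCaP GFP cells, and 9.81 and 9.65 in PC3 Notch1 cells, against 7.62 and 7.79 in PC3 GFP cells. Like HES1, by which it was chosen, TSPAN8 had no overlap between Notch1 and GFP arrays over both lines, and the share of all probe sets with this was not counted.

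For HES2 the nearest profiles to 36352_at were those of GFRA2 (r = 0.996), TIMP3 (0.993), HRC (0.993), GOLIM4 (0.993) and HSF2BP (0.993). All 5 were higher in LNCaP than in PC3 cells, which follows largely from the choice by likeness. With Notch1 their changes ran from 0.14 to 0.43 in LNCaP and from -0.35 to -0.07 in PC3. Of these changes with Notch1, 1 passed the test, GOLIM4 in LNCaP (0.43, adjusted p = 0.0234). It rests on readings far under log2 5, with 2.64 with GFP and 3.07 with Notch1. Group means ran from 2.82 to 3.42 for GFRA2, 2.92 to 4.23 for HSF2BP and 3.92 to 5.07 for HRC. For TIMP3 they ran from 5.28 to 6.58. Readings near or under log2 5 limit what the likeness can show. The profile of 36352_at spanned 1.64 on the log2 scale over the 8 arrays, against 3.31 for HES1.

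**Figure D5:**
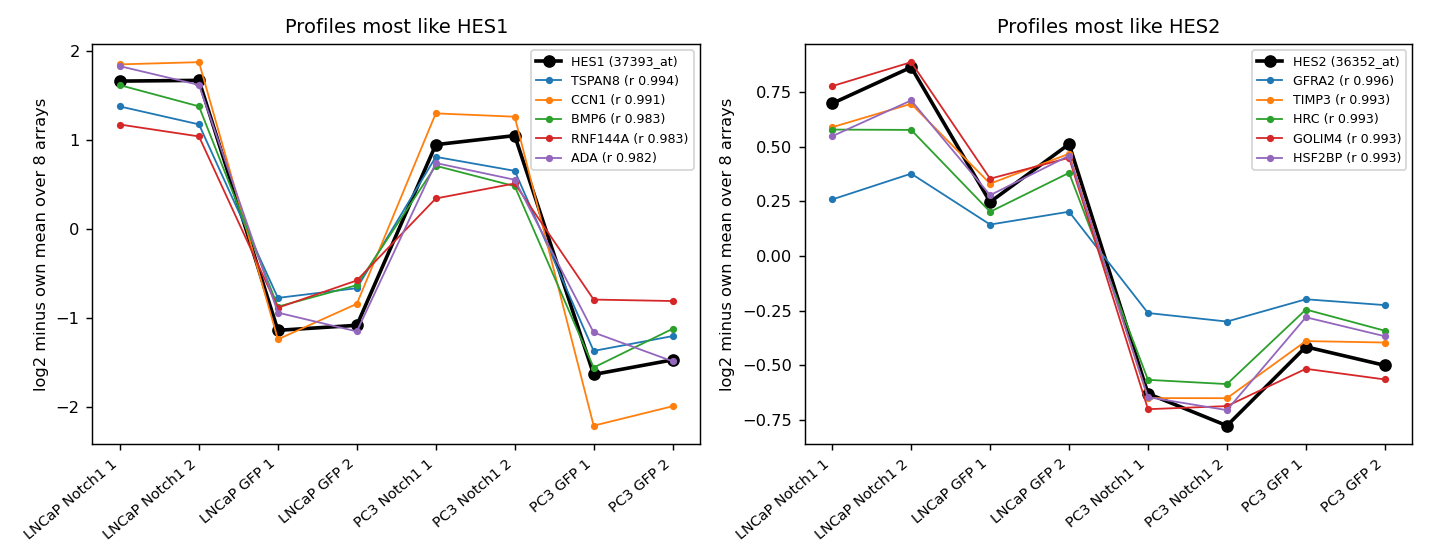
Log2 values minus each probe set's own mean over the 8 arrays (y axis) on each array (x axis, group and replicate) for HES1 and its 5 most like profiles (left) and for the HES2 probe set 36352_at and its 5 (right). The left profiles are high on all 4 Notch1 arrays, and the right ones are high on all 4 LNCaP arrays. Lines join the arrays only to guide the eye.

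The labelled lines were checked on identity genes. Of 5 measured LNCaP identity genes, such as KLK3 (prostate specific antigen), 5 were higher in LNCaP GFP than in PC3 GFP cells (median 3.94), and of 6 PC3 identity genes, such as CAV1, 5 were lower (median -4.59), where 40.3% of all probe sets were higher and 18.5% lower. With Notch1, 4 of 5 LNCaP identity genes fell in LNCaP cells (9.32% of all probe sets) and 4 of 6 PC3 identity genes rose in PC3 cells (4.19% of all), and the mean log2 level of the LNCaP identity genes was 8.17 in LNCaP Notch1, 9.21 in LNCaP GFP, 5.68 in PC3 Notch1 and 5.94 in PC3 GFP cells. Of 4 measured stromal and 4 measured leukocyte genes, 0 passed limma's test with Notch1 in either line (in PC3 1 of each list had an unadjusted p under 0.05, in LNCaP 0). The summed linear level of the leukocyte genes was 358 to 390.2 in LNCaP Notch1, 335 to 350.5 in LNCaP GFP, 256 to 281 in PC3 Notch1 and 316 to 327 in PC3 GFP cells. The 3′ minus 5′ difference of ACTB, a sign of RNA integrity, was 0.45 ± 0.10 in LNCaP Notch1, 0.62 ± 0.06 in LNCaP GFP, 0.33 ± 0.08 in PC3 Notch1 and 0.38 ± 0.07 in PC3 GFP cells (log2, SD, n = 2 each), and that of GAPDH was 0.38 ± 0.03, 0.56 ± 0.01, -0.06 ± 0.03 and 0.02 ± 0.07 in the same order of groups. Both were lower in LNCaP Notch1 than in LNCaP GFP cells, and their part in the HES1 and HES2 values was not tested. Replicate arrays correlated at 0.995 to 0.998.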

How the data were processed

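Total RNA of LNCaP and PC3 cells was copied with an oligo(dT) primer that carries a T7 promoter, labelled with biotin and hybridised to U95Av2 arrays, 2 per group. The authors deposited log2 expression values per probe set and array, made with RMA (background correction, quantile normalization and summary of the probes of a set), and their methods name limma for testing. Their versions were not stated in any source used. The table held 12625 probe sets, of which 67 control probe sets were left out, and 10943 of the 12558 tested carried 1 symbol, 545 several and 1070 none. Symbols came from the GEO platform annotation, which can be old, and 3 of 3 HES probe sets matched RefSeq by Entrez identifier. Tables of the authors' own fold changes and p-values were not used.

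The deposited values were fitted with limma 3.58.1 in R 4.3.3, as 4 group means over all 8 arrays (4 residual and 6.37 prior degrees of freedom), eBayes moderation, two-sided tests and Benjamini-Hochberg adjustment over all tested probe sets. Intervals are 95%. The functions were tested on simulated data. The number of arrays limits the precision, and no array pair held identical values. The HES genes, the lists and the tests were chosen with earlier results of these data known. The gene named from a list was one of up to 4 called members with the largest change in either line. JAG1, RBPJ, TLE1, TNC, SOX9, KLF4, NEUROG3, CDKN1B, CDKN1C and CYLD were named outside this rule, after their values were seen. So were ADAM17, NCSTN, TLE5, CTBP1, TCF3, CD4 and GAA, which were not run under the alternatives. The 5 most like genes were named by Pearson's r. The contrast between the lines under Notch1 was added after seeing the data. Levels of different genes are not compared. Alternatives were median centring, quantile normalization, a level filter at the 25th percentile, a log2 5 floor, the arrays of 1 line alone, an intensity trend, a replicate block and leaving out each array in turn. Where every reading of a gene lies above log2 5, the floor leaves its change as it was. Its adjusted p can then move only through the variance estimate and the adjustment, which draw on all probe sets. The labels number replicates in each group, no source says what a number marks, and the deviations of same-numbered arrays correlated at 0.12 to 0.55 over the 6 pairs of groups. Promoter windows are 250 bases long.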

Additional observations from a re-analysis of the deposited data

Results flagged for a closer look

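The HES2 probe set 36352_at was singled out because its response to activated Notch1 differed between the lines by the test of the difference itself, with an LNCaP effect minus PC3 effect of 0.65 on the log2 scale (adjusted p = 0.045, limma). The change was 0.40 in LNCaP cells and -0.25 in PC3 cells, and neither passed the test within its line. The second HES2 probe set, 36353_at, differed by 0.30 in the same direction (adjusted p = 0.333). In this comparison 14.2% of all probe sets were called, and the medians of all probe sets in the lines were 0.04 and -0.08.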

How the results depend on the processing

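HES1 kept its rise and its call under all 15 alternatives in each line, with 2.72 to 2.98 in LNCaP (adjusted p up to 0.00033) and 2.37 to 2.64 in PC3 (adjusted p up to 0.000796). Its difference between the lines passed the threshold with quantile normalization (0.61). Without single arrays this difference ran from 0.14 to 0.31. Between the lines with GFP, HES1 lost its call with median centring (0.16) and quantile normalization (0.29), and with Notch1 with median centring (0.29). For 36352_at the change in LNCaP passed the threshold with the level filter at 0.40 (adjusted p = 0.0499) and under the replicate block at 0.40 (adjusted p = 0.0458), and ran from 0.27 to 0.53 without single arrays. Its difference between the lines was not called with the log2 5 floor (0.65), median centring (0.55) or quantile normalization (0.54), was called with the replicate block (0.65, adjusted p = 0.0301), and ran from 0.51 to 0.78 without single arrays. The floor altered no reading of 36352_at. The replicate block changed no other call of a HES probe set.

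For 36353_at the difference between the lines with GFP reversed with median centring (-0.17) and quantile normalization (-0.22), and ran from -0.037 (without LNCaP GFP replicate 1) to 0.25 without single arrays. With Notch1 it was 0.19 with the floor, 0.030 with median centring and -0.065 with quantile normalization, and ran from 0.24 to 0.58 without single arrays. Its change in LNCaP ran from -0.028 (without LNCaP Notch1 replicate 1) to 0.31, and was -0.0014 without LNCaP GFP replicate 2. With the floor its change in PC3 was 0. CCND1 in PC3 reversed with quantile normalization (-0.11) and without PC3 GFP replicate 1 (-0.012), with 0.033 without PC3 GFP replicate 2. Signs also turned for JAG1 in PC3 without PC3 GFP replicate 2 (-0.024) and for SOX9 in LNCaP without LNCaP GFP replicate 2 (0.096, with -0.14 without replicate 1). The cause of these changes was not tested.

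Several counts of called probe sets moved. In PC3, 526 higher and 253 lower became 208 and 139 with the floor, 350 and 120 with the PC3 arrays alone, 919 and 588 with the replicate block, and 187 to 1003 and 64 to 691 without single arrays. In LNCaP, 1006 higher ran from 539 to 1196 and 1170 lower from 638 to 1350 without single arrays, with 730 lower at the floor. For the LNCaP effect minus the PC3 effect, 815 higher and 963 lower became 512 and 551 with the floor, 1445 higher with the replicate block, and 400 to 1348 and 550 to 1316 without single arrays. Between the lines with GFP, 5067 higher and 2319 lower became 3323 and 3852 with median centring, 3054 higher with the floor, and 3599 lower with quantile normalization. The low signal of both HES2 probe sets, close to log2 5 for 36353_at, limits what can be read from them.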
